A study of Mus musculus with 6 samples.

Results

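The module described here is a set of 60 genes for the machinery of mitosis: kinases, spindle motors, kinetochore proteins, condensin and cytokinesis factors. Its members were named by gene symbol and matched to Ensembl identifiers, and all 60 were found among the 21666 genes of the count matrix. The measurements are RNA-seq gene counts from 6 libraries of mouse skeletal muscle satellite cells, the resident stem cells of muscle, kept in differentiation for 2 days. The libraries comprised 3 from lncMREF knockout mice (KO) and 3 from wild-type mice (WT), with no other allele or agent in the labels. The targeted gene makes a long noncoding RNA, and the design asks which transcripts differ in its absence. Its identifier is not stated in the labels, and the targeted RNA itself was not analysed here. The labels also leave out how the knockout was made, the sex and age of the mice, and whether replicates are separate mice or cultures. A p-value therefore covers the variation among these 6 libraries, which may be technical in origin.

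Mitosis is driven by a burst of kinase activity and by a spindle of microtubules that attaches to chromosomes at kinetochores. Most genes for this machinery are transcribed in a wave in G2 and mitosis and are shut off when cells leave the cycle. Muscle precursors normally leave the cycle before they fuse, so a differentiating culture is a setting in which this programme is known to be turned off.

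Library totals ran from 17919826 to 23646805 counts in KO and from 20193337 to 28430678 counts in WT. Levels are given as CPM, counts on a common library size after scaling by edgeR's TMM method, and as RPKM, which is CPM divided by the merged exonic length in kilobases, where different genes are compared. Myogenic markers were present in both genotypes: the muscle regulator Myod1 averaged 93.5 ± 3.73 CPM in KO and 302 ± 9.93 CPM in WT, and the satellite cell factor Pax7 averaged 15.1 ± 0.751 CPM in KO and 10.5 ± 0.782 CPM in WT (SD, n = 3 each). Summed over 8 myogenic markers, levels were 1696 to 1713 CPM in KO and 6553 to 6734 CPM in WT, and 6 of the 8 fell, 1 rose and 1 was not called.

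Nearly every mitosis gene was more abundant in KO than in WT cells. Together the 60 genes summed to 1795, 1840 and 1719 CPM in KO replicates 1 to 3, against 545, 557 and 547 CPM in WT replicates 1 to 3. They took 0.182% to 0.195% of all counts in KO libraries and 0.0513% to 0.0524% in WT libraries. The ranges did not overlap, and the libraries of each genotype lay close together. In bulk RNA, a larger share of dividing cells and more RNA in each dividing cell cannot be told apart.

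All 60 members passed the filter on low counts. By edgeR's quasi-likelihood test with Benjamini-Hochberg adjustment over 15518 genes, 59 members were higher in KO at an adjusted p under 0.05, none was lower, and Smc4 was not called. Across all tested genes, 66.7% were called, 33.7% as higher and 33.0% as lower. By size, 56 members were called and over 2-fold higher, a class that held 8.56% of tested genes. The median log2 fold change of the members was 2.02, a 4.07-fold difference, beside a median of 0.02 over all tested genes. Members over 4-fold higher numbered 32, whereas 2.21% of tested genes passed that size. In 59 members every KO library lay above every WT library, a pattern shown by 35.3% of tested genes, and in no member did every KO library lie below, as in 34.1% of tested genes. Standard errors of the members ran from 0.05 to 0.25 on the log2 scale. These values rest on the deposited count matrix. The count tables deposited for single libraries hold other values for 58 of the 60 members. Some members abundant in the matrix had 0 counts in every one of those tables. Among them were Bub3, Mki67 and Plk1, which averaged 1968, 1268.5 and 424 counts per library in the matrix. Ncapd2 averaged 1001 counts in the matrix and 5286 in those tables. There 28 members passed the filter, with 9 called higher and 6 lower and 27.3% of tested genes called higher. Melk and Smc2, whose counts matched in both sources, were higher in both. That follows from the match and says nothing about the other 58 members.

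**Figure D1:**
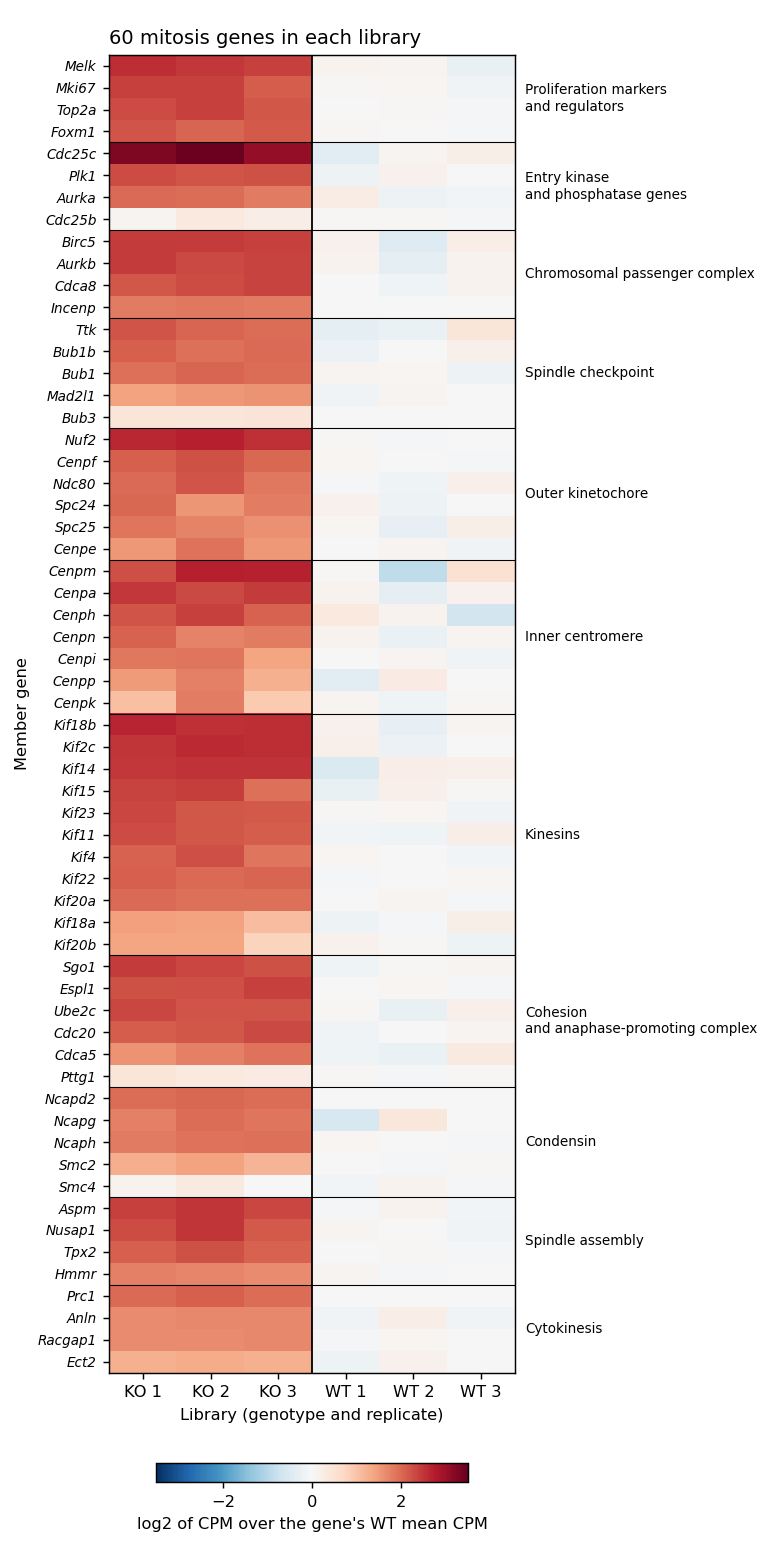
Level of each of the 60 members (rows, by role) in each library (columns), as log2 of CPM over the gene's WT mean CPM. The 3 KO columns are red for nearly all genes, while Cdc25b, Bub3, Pttg1 and Smc4 stay pale in all 6 libraries.

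Genes that mark proliferating cells or drive the mitotic transcription programme rose 4- to 6-fold. Foxm1, a forkhead transcription factor of G2 and mitosis genes, had 45.6, 41.3 and 44.1 CPM in KO, against 10.2, 10.004 and 9.74 CPM in WT, a log2 fold change of 2.13 ± 0.08 (SE). Melk, a kinase abundant in dividing cells, had 18.5, 17.2 and 16.3 CPM in KO, against 3.38, 3.32 and 2.61 CPM in WT. Its log2 fold change of 2.50 ± 0.12 was the highest of this group of 4. Top2a, the topoisomerase that untangles sister chromatids, averaged 140 ± 11.5 CPM in KO and 28.6 ± 0.698 CPM in WT (SD, n = 3 each), and Mki67, the proliferation marker Ki-67, averaged 94.6 ± 10.03 CPM in KO and 19.1 ± 1.27 CPM in WT. All 4 genes were separated between genotypes with no overlap.

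The kinases and phosphatases of mitotic entry split. Cdc25c, a phosphatase that activates Cdk1 at entry into mitosis, showed the largest fold change of all 60 members. It had 6.61, 7.45 and 5.8 CPM in KO, against 0.534, 0.737 and 0.784 CPM in WT, a log2 fold change of 3.26 ± 0.21 and an adjusted p of 8.82e-16 by edgeR. Its close relative Cdc25b, a phosphatase of the same substrate, had 21, 24.9 and 22.9 CPM in KO, against 20.0, 20.2 and 18.5 CPM in WT. The Cdc25b libraries did not overlap, yet the log2 fold change was 0.23 ± 0.08, a 1.17-fold difference with an edgeR adjusted p of 0.0108, and this call was lost without KO replicate 2 (log2 fold change 0.16, adjusted p = 0.0977) or WT replicate 3 (0.18, adjusted p = 0.0891). Plk1, the polo kinase of centrosomes and kinetochores, had 32.7, 30.7 and 31.4 CPM in KO, against 5.92, 7.42 and 6.72 CPM in WT. Aurka, the Aurora kinase of spindle poles, had 23.1, 22.8 and 20.7 CPM in KO, against 6.99, 5.16 and 5.49 CPM in WT. These kinases rose by 2.25 ± 0.09 and 1.92 ± 0.10 on the log2 scale, so Cdc25b alone in the group of 4 stayed under 2-fold.

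The chromosomal passenger complex, which corrects faulty attachments of microtubules to kinetochores and later guides cytokinesis, rose as a whole. Its kinase Aurkb had 21, 19.2 and 20.0 CPM in KO, against 4.23, 3.11 and 4.22 CPM in WT. Birc5, the survivin subunit that targets the complex, had 21.2, 21.4 and 20.7 CPM in KO, against 4.32, 2.84 and 4.55 CPM in WT. The scaffold Incenp had 45.8, 46.6 and 45.6 CPM in KO, against 12.8, 13.0 and 13.0 CPM in WT. The 4 subunits rose by 1.83 (Incenp) to 2.41 (Birc5) on the log2 scale, with Cdca8, the borealin subunit, at 2.26 ± 0.10 between them.

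Spindle checkpoint genes, which hold anaphase until all kinetochores are attached, had a median log2 fold change of 1.98 over 5 members. The checkpoint kinase Bub1 had 17.7, 19.2 and 18.1 CPM in KO, against 4.98, 4.95 and 4.11 CPM in WT. Ttk, the kinase Mps1 that starts the signal, had 9.38, 8.44 and 8.01 CPM in KO, against 1.65, 1.74 and 2.76 CPM in WT. Mad2l1, the Mad2 protein that inhibits Cdc20, had 28.0, 30.1 and 31.1 CPM in KO, against 9.61, 11.3 and 10.6 CPM in WT. Ttk rose by 2.04 ± 0.17, Bub1b by 1.99 ± 0.09, Bub1 by 1.98 ± 0.11 and Mad2l1 by 1.51 ± 0.08 on the log2 scale. Bub3, the adaptor that brings Bub1 and Bub1b to kinetochores, had 101, 101 and 102 CPM in KO, against 74.9, 74.4 and 74.9 CPM in WT. Bub3 had the smallest standard error of the 60 members and its groups did not overlap. Its log2 fold change of 0.44 ± 0.05 had an edgeR adjusted p of 4.56e-10.

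At the outer kinetochore, where microtubules bind, all 6 members rose, by 1.66 to 2.63 on the log2 scale. Nuf2, which pairs with Ndc80 in the dimer that contacts the microtubule, had 23.9, 25 and 22.4 CPM in KO, against 3.96, 3.74 and 3.81 CPM in WT, a log2 fold change of 2.63 ± 0.10. Ndc80 itself had 14, 16.4 and 12.8 CPM in KO, against 3.43, 3.21 and 4.07 CPM in WT. Cenpf, a large protein of the kinetochore corona, had 23.0, 25.6 and 21.8 CPM in KO, against 5.74, 5.37 and 5.19 CPM in WT. Cenpe, a kinesin that carries chromosomes to the spindle equator, rose least, with 21.3, 27.7 and 21.2 CPM in KO, against 7.57, 7.95 and 6.83 CPM in WT. The partners Spc24 and Spc25, which link the Ndc80 dimer to the centromere, rose by 1.78 ± 0.15 and 1.72 ± 0.11, so all 4 genes of the Ndc80 complex rose together.

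All 7 members of centromeric chromatin and the inner kinetochore, the group labelled inner centromere in the figures, rose. They included Cenpm, Cenpk and Cenpp, the members with the largest standard errors. Cenpa, the histone H3 variant that marks centromeres, had 23.6, 21.2 and 23.2 CPM in KO, against 4.58, 3.42 and 4.74 CPM in WT, and rose by 2.39 ± 0.11 on the log2 scale. Cenpm, a subunit of the constitutive centromere network, had 3.76, 5.14 and 5.06 CPM in KO, against 0.801, 0.421 and 1.12 CPM in WT. Cenpk, of the same network, had 2.67, 4.46 and 2.42 CPM in KO, against 1.38, 1.16 and 1.34 CPM in WT. The log2 fold changes of Cenpm and Cenpk were 2.51 ± 0.25 and 1.31 ± 0.24, and KO replicate 2 stood above the other KO libraries for Cenpk. Without KO replicate 2 the log2 fold change of Cenpk was 0.97, just under 2-fold, and Cenpk was still called; it was the 1 member over 2-fold that leaving out a library took below that size. The other 4, Cenph, Cenpn, Cenpi and Cenpp, rose by 1.54 to 2.25.

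All 11 kinesins, motor proteins that slide, cap or move along spindle microtubules, rose, with a median log2 fold change of 2.18. Kif18b, a depolymerising kinesin of microtubule tips, had 18.7, 17.3 and 17.5 CPM in KO, against 3.25, 2.42 and 3.17 CPM in WT. Kif11, the Eg5 motor that pushes spindle poles apart, had 34.2, 31.3 and 29.99 CPM in KO, against 6.45, 6.32 and 8.10 CPM in WT. Kif4, a chromosome-bound motor encoded on the X chromosome, had 21, 23.9 and 18.5 CPM in KO, against 5.25, 5.05 and 4.70 CPM in WT. Log2 fold changes were 2.58 ± 0.12 for Kif18b, 2.18 ± 0.09 for Kif11 and 2.09 ± 0.11 for Kif4. The smallest was that of Kif20b, a motor of cytokinesis, at 1.23 ± 0.15, with 16.1, 15.9 and 10.6 CPM in KO, against 6.76, 6.27 and 5.37 CPM in WT. KO replicate 3 was the low library there but still lay above all WT libraries.

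Of the genes that guard and then release sister chromatid cohesion, 5 of 6 rose over 2-fold. Sgo1, the shugoshin that protects centromeric cohesion, had 11.4, 10.6 and 9.75 CPM in KO, against 1.87, 2.16 and 2.24 CPM in WT. Cdc20, the activator of the anaphase-promoting complex, had 36.2, 37.1 and 41.1 CPM in KO, against 7.61, 8.42 and 8.81 CPM in WT. Espl1, the separase that cleaves cohesin, rose by 2.30 ± 0.11, Sgo1 by 2.34 ± 0.15, Cdc20 by 2.2 ± 0.08 and Ube2c, the ubiquitin-conjugating enzyme of that complex, by 2.24 ± 0.09. Pttg1, the securin that inhibits separase, had 18.0, 17.0 and 16.2 CPM in KO, against 13.8, 12.6 and 13.6 CPM in WT. Its groups did not overlap, and its log2 fold change of 0.35 ± 0.09 had an edgeR adjusted p of 0.000668, so securin moved 1.28-fold.

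Condensin I, the ring complex that compacts mitotic chromosomes, was uneven across its 5 subunits. The subunit Ncapd2 had 71.2, 73.3 and 70.9 CPM in KO, against 18.3, 18.6 and 18.0 CPM in WT. Ncapg had 15.5, 17.6 and 16.7 CPM in KO, against 3.07, 5.95 and 4.63 CPM in WT. These and Ncaph, the subunits found in condensin I and not in condensin II, rose by 1.88 to 1.97 on the log2 scale. Smc2, an ATPase of the ring that both condensins share, had 40.4, 44.2 and 37.5 CPM in KO, against 16.6, 16.0 and 17.2 CPM in WT, and rose by 1.29 ± 0.07. Smc4, its ATPase partner, had 55.3, 62.8 and 50.7 CPM in KO, against 47.8, 55.7 and 49.0 CPM in WT. Here the groups overlapped, and the log2 fold change of 0.16 ± 0.07 had an edgeR adjusted p of 0.0656. Without KO replicate 3 or WT replicate 2, Smc4 was called higher, with log2 fold changes of 0.22 (adjusted p = 0.0075) and 0.21 (adjusted p = 0.0134).

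The 4 spindle assembly members and the 4 cytokinesis members all rose. Aspm, a microtubule protein of spindle poles, had 24.6, 26.6 and 23.7 CPM in KO, against 4.58, 5.05 and 4.40 CPM in WT. Hmmr, a spindle-associated protein, had 29.2, 28.2 and 27.4 CPM in KO, against 9.26, 8.21 and 8.58 CPM in WT. Tpx2, which activates Aurka on the spindle, averaged 69.6 ± 4.14 CPM in KO and 15.9 ± 0.552 CPM in WT (SD, n = 3 each). In this group of 4, log2 fold changes ran from 1.70 (Hmmr) to 2.42 (Aspm). Prc1, which bundles the central spindle, had 58.6, 63.8 and 57.6 CPM in KO, against 15.1, 14.8 and 14.8 CPM in WT. Ect2, an exchange factor that acts at the cleavage furrow, had 18.5, 19.3 and 18.5 CPM in KO, against 6.99, 8.79 and 7.84 CPM in WT. Prc1 rose by 2.01 ± 0.07 and Ect2 by 1.26 ± 0.10, with the cytokinesis genes Anln and Racgap1 between them at 1.68 and 1.67.

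**Figure D2:**
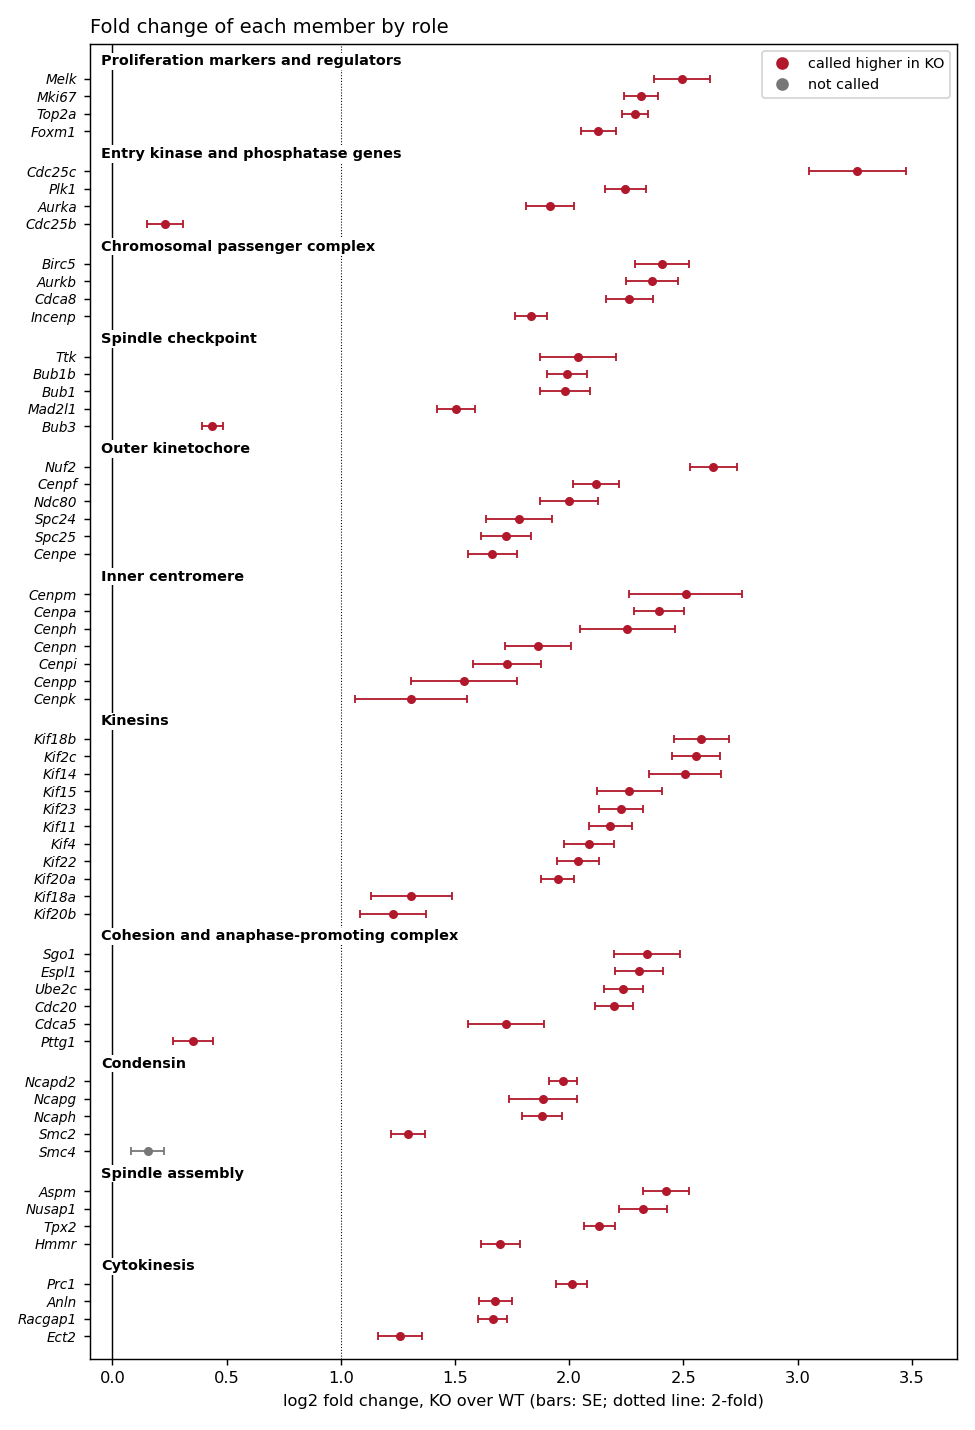
Log2 fold change of KO over WT for each member, grouped by role, with its standard error as bars (n = 3 libraries each) and a dotted line at 2-fold. Only Cdc25b, Bub3, Pttg1 and Smc4 lie left of the line, and Smc4 is the 1 member not called.

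The 4 members that stayed under 2-fold were the 4 most abundant per length in WT. Bub3 stood at 10.7 RPKM, Smc4 at 9.75, Pttg1 at 6.68 and Cdc25b at 5.25 RPKM in WT, where the fifth, Cdc20, stood at 4.43 RPKM. In KO the order differed: Cdc20 came first at 20.4 RPKM, while Bub3 was at place 5 with 14.5, Smc4 at place 8 with 10.8, Pttg1 at place 13 with 8.53 and Cdc25b at place 25 with 6.15 RPKM. Levels of the 60 members spanned 0.539 to 20.4 RPKM in KO and 0.139 to 10.7 RPKM in WT. Across the members, the log2 WT level and the log2 fold change correlated at -0.52 (Pearson; Spearman -0.36, n = 60 genes), and at -0.21 by either measure without those 4 genes (n = 56). Over all 15505 tested genes with a length the values were -0.28 and -0.26. The WT level enters both axes and the genes share the same 6 libraries, so these are descriptions without a test. KO and WT levels of the 60 genes had a rank correlation of 0.94.

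**Figure D3:**
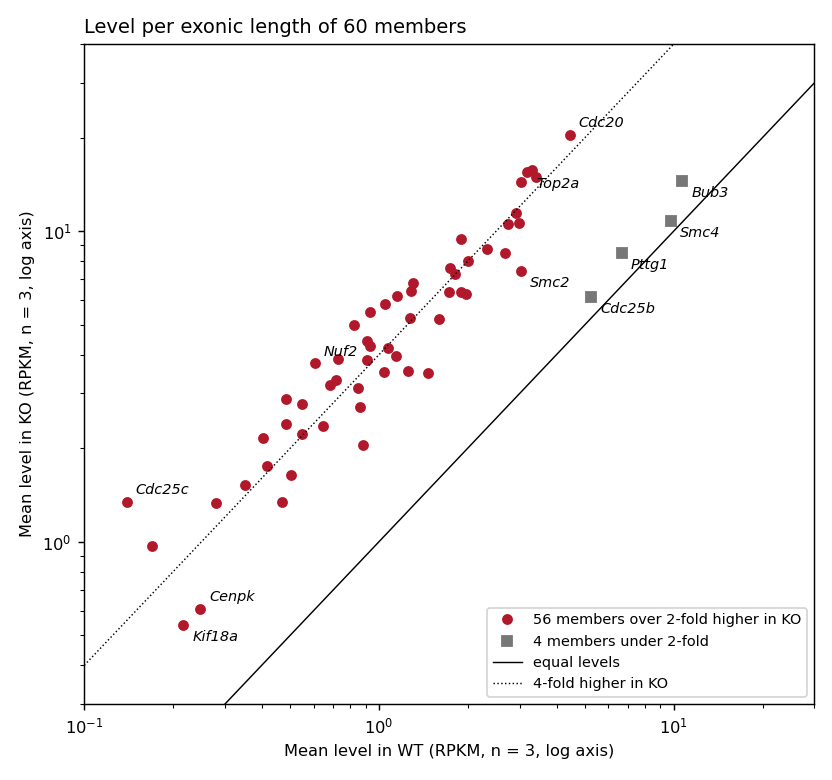
Mean RPKM of each member in KO (vertical) against WT (horizontal), both on log axes, n = 3 libraries each. The 56 members over 2-fold higher follow the dotted 4-fold line, and the 4 others lie close to the line of equal levels at the high end of WT.

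Several members act as partners in 1 complex or as enzyme and inhibitor, and the proportions of their transcripts within a library are given per length. The ratio of Smc2 to Smc4 RPKM was 0.694, 0.670 and 0.704 in KO, against 0.331, 0.274 and 0.333 in WT. The ratio of Bub1 to Bub3 was 0.283, 0.306 and 0.285 in KO, against 0.107, 0.107 and 0.0881 in WT. The ratio of Espl1 to its inhibitor Pttg1 was 0.255, 0.274 and 0.316 in KO, against 0.0693, 0.0810 and 0.0683 in WT. Between the phosphatases, the ratio of Cdc25c to Cdc25b was 0.239, 0.227 and 0.192 in KO, against 0.0202, 0.0276 and 0.0321 in WT. The ratio of Aurka to Aurkb was lower in KO, at 1.28, 1.38 and 1.21 in KO, against 1.92, 1.93 and 1.51 in WT. Of 8 ratios computed, the other 7, those of Ncapd2 to Smc4, Bub1b to Bub3 and Cdc20 to Bub3 included, were higher in every KO library than in any WT library. The pairs were picked with the fold changes known and are given without a test. A ratio within a library does not depend on how libraries are scaled.

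**Figure D4:**
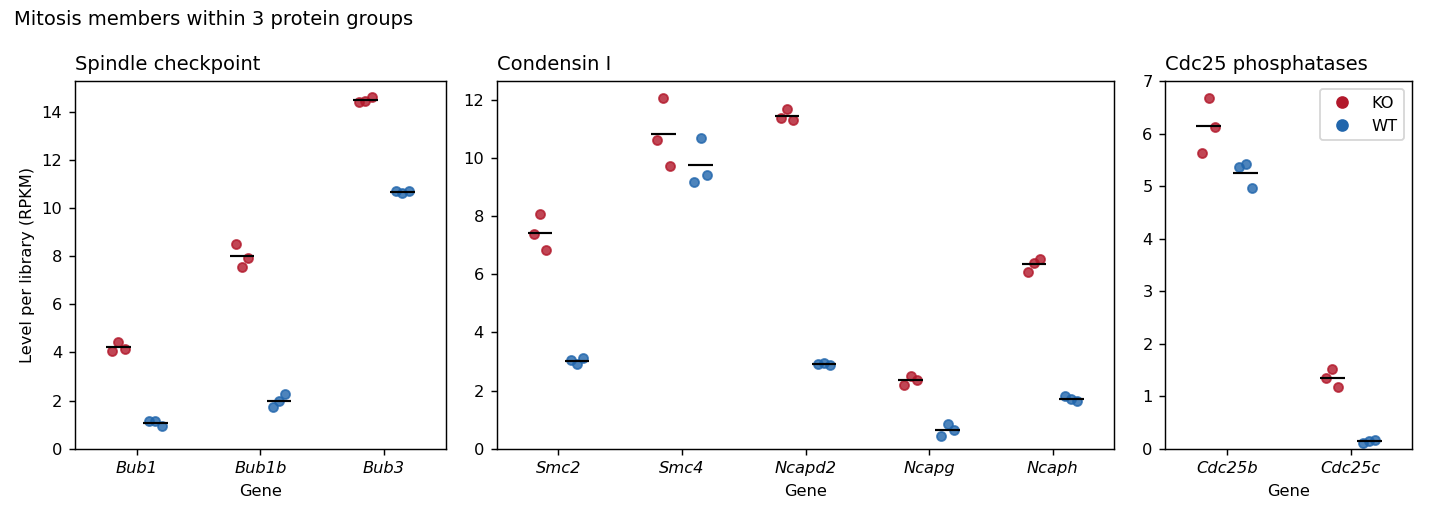
RPKM in each library (points; bars are means, n = 3) of the Bub checkpoint genes, the 5 condensin I genes and the Cdc25 phosphatases, KO left of WT for each gene. The KO to WT ratio of Bub3 (1.36), Smc4 (1.11) and Cdc25b (1.17) is closer to 1 than that of the other genes in their panels.

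Promoters of mitosis genes are known to hold a CHR element, bound by the MuvB core of the DREAM complex, and CCAAT boxes, bound by NF-Y. The windows searched were RefSeq's, on build GRCm38.p6, from 250 bases before to 50 after the start of transcription, and 52 of the 60 members had at least 1. CHR was searched as TTTGAA or TTCGAA and the CCAAT box as CCAAT, each on both strands. A CHR match was present in 39 of 52 members (75%, Wilson 95% interval 61.8% to 84.8%), beside 21.7% of 27025 genes with a window and 16.2% of the tested genes that had one. CCAAT was present in 37 of 52 (71.2%, interval 57.7% to 81.7%), beside 41.1% of all genes and 42.5% of tested genes. Both were present in 33 of 52 members (63.5%), beside 8.61% of all genes and 6.75% of tested genes. In the last 150 bases of the windows, both were present in 26 of 52 members and 2.4% of all genes. These matches are letters in a window and not measured binding.

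The last 150 bases of 5 windows show the pair in members that rose about 4-fold, with CCAAT and CHR letters of either strand in capitals and the sequence written 5′ to 3′ along the gene. The windows are Plk1 at chr7:122159335-122159484 on the plus strand, Cdc20 at chr4:118437294-118437443 on the minus strand, Bub1 at chr2:127831810-127831959 on the minus strand, Cenpf at chr1:189688037-189688186 on the minus strand and Kif23 at chr9:61946750-61946899 on the minus strand, the last for a motor of the central spindle that rose by 2.23 ± 0.10.
Plk1: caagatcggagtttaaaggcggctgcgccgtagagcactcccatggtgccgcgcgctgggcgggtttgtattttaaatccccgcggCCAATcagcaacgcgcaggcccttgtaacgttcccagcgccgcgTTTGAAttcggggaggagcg
Cdc20: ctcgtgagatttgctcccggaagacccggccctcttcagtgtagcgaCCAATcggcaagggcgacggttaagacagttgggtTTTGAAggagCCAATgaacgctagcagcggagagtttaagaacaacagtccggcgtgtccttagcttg
Bub1: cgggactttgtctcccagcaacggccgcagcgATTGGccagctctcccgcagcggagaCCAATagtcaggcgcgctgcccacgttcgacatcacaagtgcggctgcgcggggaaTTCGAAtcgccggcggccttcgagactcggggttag
Cenpf: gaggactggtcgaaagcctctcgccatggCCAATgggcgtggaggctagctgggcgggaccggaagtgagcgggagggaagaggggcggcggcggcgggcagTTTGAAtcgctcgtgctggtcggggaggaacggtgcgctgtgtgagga
Kif23: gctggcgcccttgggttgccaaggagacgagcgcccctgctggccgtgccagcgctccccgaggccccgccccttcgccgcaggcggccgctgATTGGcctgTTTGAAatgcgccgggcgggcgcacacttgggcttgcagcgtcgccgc

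Members with and without the motifs overlapped in response. Members with both had a median log2 fold change of 2.09 (0.23 to 2.58, n = 33), and those with neither had 1.88 (0.35 to 2.63, n = 9). Both motifs were present in the windows of Cdc25b and Bub3, which stayed under 2-fold; the CHR match of Cdc25b lies after the start and that of Bub3 before it. Neither stood in the windows of Nuf2 and Melk, the highest of their groups, nor in that of Pttg1. The annotated start of Pttg1 in GENCODE lies upstream of the RefSeq window. The same holds for other members, Kif2c, Cdca8 and Kif14 included, which are counted among those with a CHR match. The last 150 bases of the window are given for Cdc25b at chr2:131186848-131186997 on the plus strand, Bub3 at chr7:131560270-131560419 on the plus strand, Nuf2 at chr1:169531415-169531564 on the minus strand and Pttg1 at chr11:43425932-43426081 on the minus strand.
Cdc25b: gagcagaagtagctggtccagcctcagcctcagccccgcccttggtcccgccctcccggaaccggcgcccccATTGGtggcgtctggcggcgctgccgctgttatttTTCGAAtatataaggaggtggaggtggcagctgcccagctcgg
Bub3: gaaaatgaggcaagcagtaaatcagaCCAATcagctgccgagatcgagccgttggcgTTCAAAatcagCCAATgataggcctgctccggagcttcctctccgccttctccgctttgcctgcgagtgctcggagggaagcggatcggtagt
Nuf2: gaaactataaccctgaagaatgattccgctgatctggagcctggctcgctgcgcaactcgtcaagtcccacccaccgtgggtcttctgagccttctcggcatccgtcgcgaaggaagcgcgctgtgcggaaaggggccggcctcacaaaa
Pttg1: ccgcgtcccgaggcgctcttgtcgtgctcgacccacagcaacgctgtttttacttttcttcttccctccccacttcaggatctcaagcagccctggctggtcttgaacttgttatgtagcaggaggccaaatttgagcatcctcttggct

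Other genes of cell division, listed by textbook role and not among the members, moved less uniformly. Of 114 such genes, 83 rose, 17 fell and 14 were not called, with a median log2 fold change of 0.68. Over all tested genes 33.7% were called higher and 33.0% lower. Cyclin B, Cdk1 and their regulators came closest to the members, with 14 of 15 higher and a median of 1.81. Ccna2 and Ccnb1, the A and B cyclins of G2 and mitosis, rose by 2.28 ± 0.07 and 2.2 ± 0.07. The exception was Cdc25a, the third Cdc25 phosphatase, at 24.0 ± 1.31 CPM in KO and 22.5 ± 1.23 CPM in WT, which was not called. Among 29 other kinetochore genes 25 rose and none fell, and among 21 other spindle and centrosome genes 16 rose and 4 fell. Kntc1, a subunit of the complex that recruits dynein to kinetochores, rose by 2.30 ± 0.11, and the centromeric chaperone Hjurp by 0.79 ± 0.05. Stmn1, the tubulin-binding stathmin, rose by 2.49 ± 0.06 and Kifc1, a minus-end motor, by 2.04 ± 0.08, whereas Clasp1, a stabiliser of microtubule ends, fell by 0.63 ± 0.04 and the centriolar kinesin Kif24 by 0.66 ± 0.15.

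The list of cohesin, condensin II and the anaphase-promoting complex had a lower median and was mixed. Of its 26 genes, 14 rose, 7 fell and 5 were not called, and the median was 0.13. The 3 subunits found only in condensin II had a median of 1.07, and the 3 core cohesin genes had a median of -0.20. Within condensin II, Ncapg2 rose by 1.52 ± 0.09 and Ncapd3 by 1.07 ± 0.08, while Ncaph2 rose by 0.20 ± 0.05. The cohesin genes Smc3 and Rad21 fell by 0.20 ± 0.08 and 0.26 ± 0.05, the cohesin subunit Stag2 by 0.46 ± 0.05, and Wapl, which releases cohesin from chromatin, by 0.63 ± 0.05. Smc1a rose by 0.21 ± 0.07. With library size alone as the scaling, which put the median of all genes at 0.19, fewer of these 114 genes fell (11 in place of 17). Among 13 other cytokinesis genes 9 rose and 3 fell.

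The DREAM and MuvB complexes that act on CHR elements had 10 genes listed, of which 5 rose, 3 fell and 2 were not called. Across all tested genes 33.7% were called higher and 33.0% lower. The list median was 0.09, beside 0.02 over all tested genes. Mybl2, the B-Myb activator that joins MuvB in cycling cells, had 10.3, 12.2 and 11.3 CPM in KO, against 3.12, 3.63 and 3.47 CPM in WT, and rose by 1.73 ± 0.13. Rbl1, the pocket protein p107, rose by 0.65 ± 0.09. E2f4, the repressor E2F of DREAM, fell by 0.45 ± 0.05, and Rbbp4, a histone-binding subunit of MuvB, by 0.29 ± 0.04. Rbl2, the pocket protein p130 of quiescent cells, averaged 42.5 ± 2.34 CPM in KO and 44.9 ± 2.61 CPM in WT (SD, n = 3 each) and was not called. All 30 genes of a list for S phase rose, by 0.62 to 2.24, with a median of 1.42.

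**Figure D5:**
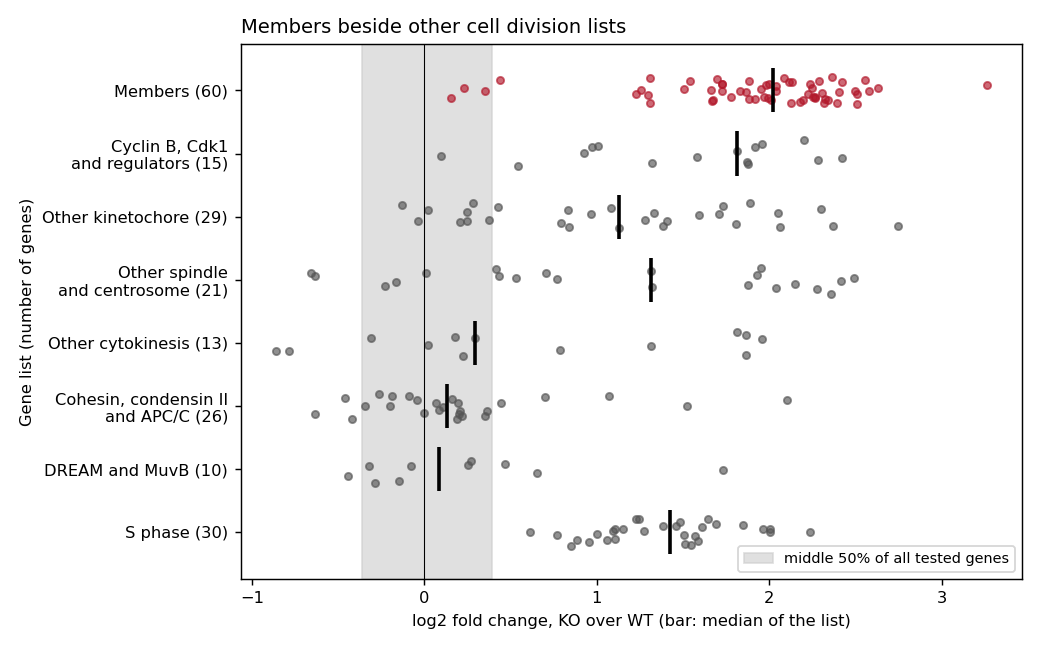
Log2 fold change of KO over WT for each tested gene (points) of the members and of 7 other lists, with the list median as a bar. The member median is 2.02, the list medians run from 0.09 (DREAM and MuvB) to 1.81 (cyclin B, Cdk1 and regulators), and the grey band holds the middle 50% of all tested genes.

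Several other measures moved with genotype beside the mitosis genes, and their part in these results was not tested. Macrophage and leukocyte markers summed to 278 to 285 CPM in KO and 94.5 to 100.2 CPM in WT, with 6 of 8 higher. Schwann cell markers summed to 940 to 954 CPM in KO and 482.5 to 487.7 CPM in WT, with 6 of 8 higher and 1 lower. All 8 endothelial markers and all 8 myocyte markers fell. The endothelial sum was 103 to 111 CPM in KO and 341 to 351 CPM in WT, and the myocyte sum 3810 to 4007 and 16480 to 17262 CPM. Fibro-adipogenic markers summed to 11637 to 12375 CPM in KO and 10222 to 10362 CPM in WT, with 3 higher and 3 lower of 7 tested. Smooth muscle and pericyte markers summed to 2929 to 3027 CPM in KO and 5864 to 6061 CPM in WT, with 1 of 8 higher and 5 lower. Beside these marker counts, 33.7% of all tested genes were called higher and 33.0% lower. No marker of these lists was at 0 in any library. Mitochondrial genes took 2.07% to 2.30% of counts in KO and 3.97% to 4.18% in WT. Xist averaged 457 ± 35 CPM in KO and 154 ± 1.54 CPM in WT, and Ddx3y, a Y-linked gene, averaged 35.7 ± 1.79 CPM in KO and 61.2 ± 4.59 CPM in WT (SD, n = 3 each). Both were present in all 6 libraries. The members Kif4 and Cenpi are X-linked.

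Within KO, replicate 3 held the lowest level of 35 of the 60 members, replicate 1 of 15 and replicate 2 of 10, whereas replicate 3 was lowest for 34.5% of all tested genes. The members' median over the WT mean was 1.95 on the log2 scale in KO replicate 3, 2.05 in KO replicate 2 and 2.07 in KO replicate 1. Without KO replicate 3 the median log2 fold change of KO over WT was 2.06.

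Exonic overlap with a neighbour exceeded 10% of exonic bases in 7 members, and 42 members shared no exonic base with another gene. Kif20a shared 29.3% with Cdc23, which rose by 0.22, and Ube2c shared 22.8% with the muscle troponin gene Tnnc2, which fell by 2.22. Tnnc2 averaged 0.167 ± 0.0663 CPM in KO and 0.796 ± 0.237 CPM in WT (SD, n = 3 each). Cdc23 was more abundant than Kif20a, with means of 68.3 CPM in KO and 58.5 CPM in WT, against 45.6 and 11.8 CPM for Kif20a. Kif4 shared 15.1% with Pdzd11, which rose by 0.28, and the remaining 4 were Ncapg, Cdc25c, Cenpp and Prc1. No tested neighbour of these 7 rose by more than 0.28 on the log2 scale. The labels do not say whether counting used strand, so shared reads could not be assigned.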

How the data were processed

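Gene counts of 6 libraries were analysed. Raw counts by Ensembl gene were deposited by the authors as a matrix of 21666 genes and as a table of 55359 genes for each library; HISAT2 2.2.1, featureCounts 2.0.1 and mm10 are named per the submitters' processing notes, and counting options and strand use are not stated there. The matrix was used, as the rule for the members names it. The per-library tables hold other values for most genes and were an alternative: Melk and Smc2 were the only members whose mean in them lay between 0.8 and 1.25 of that in the matrix.

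Symbols, positions and merged exonic lengths come from GENCODE M21 (GRCm38, the assembly of mm10), which matched 21632 of the matrix genes. Genes were filtered by filterByExpr (minimum count 10, minimum total 15), scaled by TMM and compared by edgeR 4.0.16's quasi-likelihood F-test in R 4.3.3 with genotype as the only term, with Benjamini-Hochberg adjustment over 15518 genes and calls at an adjusted p under 0.05. The standard error is the log2 fold change over the square root of F. The test was run on simulated data with known changes first. Overlaps were found with bedtools 2.31.1. Alternatives used DESeq2 1.42.0, limma 3.58.1, other scalings and filters, a 1.5-fold test, a replicate block and leaving out each library.

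The members, role groups and lists were chosen with earlier results of these data known. Named genes were a fixed set, the highest and lowest of each role group, members not called, and the 2 genes of smallest p in each direction of each companion list, except that those of the cytokinesis list are not reported here; Espl1, Ube2c, Cdca8, Bub1b, Spc24, Spc25, Ncaph, Kif23, Anln, Racgap1, Cdc25a, Rbl2 and the condensin II and cohesin genes were added after their values were seen. Libraries were not duplicates: the chi-square per gene between replicates ran from 3.18 to 5.11, and the biological coefficient of variation was 4.91%. Wilson intervals cover counting error only.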

Additional observations from a re-analysis of the deposited data

How the results depend on the processing

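With median-of-ratios factors, no filter, DESeq2, limma voom or mitochondrial genes left out, 59 of the 60 members were again called higher. Of all tested genes, 25.5% (no filter) to 33.7% (mitochondrial genes left out) were called higher in those settings. Library size as the only scaling gave 60 called higher (beside 46.6% of tested genes), a member median of 2.2, Smc4 called at 0.33 and 11 companion genes lower; it moved the median of all genes to 0.19 (from 0.02) and the share of calls that were higher to 66.1% (from 50.5%), while the member median less the all-gene median stayed at 2.00. Against a 1.5-fold change, 56 members were called, Bub3 (0.44), Cdc25b (0.23) and Pttg1 (0.35) were not, and the counts were 1541 genes higher (9.93% of those tested) and 1853 lower overall and 54 and 2 among companion genes. No pairing by replicate number was visible (correlations of deviations from -0.03 to -0.0009), but these values cannot exclude it, and the labels do not describe the replicates. With a replicate block in the edgeR test 60 members were called higher (beside 33.2% of tested genes), with 10209 calls in all. Smc4 was among these members at 0.15 (edgeR adjusted p = 0.029).

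Leaving out each library in turn gave 58 to 60 members higher, member medians of 2.01 to 2.06, 4837 to 5089 genes higher and 77 to 82 companion genes higher with 15 to 18 lower. The log2 fold change of Smc4 ran from 0.07 to 0.22 and that of Cdc25b from 0.16 to 0.29.

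In the tables made per library, 28 members passed the filter, 9 were called higher and 6 lower, and the member median was 0.0747; 2691 genes (27.3% of those tested) were called higher and 2745 lower, and of 60 companion genes tested there 13 were higher and 23 lower. Signs were opposite for Anln (-0.11), Cdc25b (-0.49), Cdca8 (-0.61), Cenpk (-0.44), Cenpp (-0.61), Kif15 (-0.21), Kif18a (-0.11), Kif20a (-0.17), Ncapd2 (-1.26), Ndc80 (-0.36) and Tpx2 (-0.28). The 2 members whose counts matched the matrix kept their call there, which follows from the match. Melk had 426, 456 and 321 counts in KO and 84, 71 and 80 in WT (log2 fold change 2.42). Smc2 had 919, 1185 and 747 in KO and 398, 325 and 484 in WT (1.31). The cause of the mismatch elsewhere was not tested. In the matrix, depth limits the rarest members most: the lowest count there was 8, that of Cenpm in WT replicate 2. In the tables made per library, some members that were abundant in the matrix, Mki67 and Bub3 included, had 0 counts in all 6 libraries.

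TTTGAA alone was present in 67.3% of members and 20.2% of genes; in the last 150 bases CHR was present in 69.2% and 9.87%, and CCAAT in 61.5% and 26.3%.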
